A study of Mus musculus with 12 samples.

Results

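The genes described here are those of DNA replication and of the repair and recombination of replicating DNA. They were taken by symbol, as gene names that match the families of the origin recognition complex, the MCM and GINS proteins, the replicative polymerases and primase, the clamp and its loader, ribonucleotide reductase, the Rad, Brca, Fanconi and MutS families and single genes such as Pcna, Cdc6 and Uhrf1. 66 of the 4859 coding genes with deposited values met this rule, and their measured values played no part in it. The symbol rule also takes in Rad54l2, a chromatin-remodelling ATPase outside the replication machinery, and Rad21, a subunit of the cohesin ring.

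Expression was measured by bulk RNA-seq in cells sorted by FACS from the cerebral cortex of mouse embryos of the transgenic strain Tg(Ebf2-EGFP)FB58Gsat, on embryonic days E11.5, E13.5 or E15.5. At each stage the Ebf2-EGFP+ cells and the Ebf2-EGFP- cells were sequenced in 2 libraries each, which gives 6 groups and 12 libraries. Both populations carry the transgene, in which regulatory sequence of Ebf2 drives EGFP, no other allele or treatment was applied, and embryos of several mice were pooled for each sort. According to the study's description, the Ebf2-EGFP+ cells are mostly preplate neurons at E11.5 and Cajal-Retzius neurons for the most part by E15.5. It describes the Ebf2-EGFP- cells as mostly progenitors at E11.5, joined by cortical plate neurons at the later stages. The study's methods name the cortex as the sorted tissue, and its results name the forebrain. The libraries of a group are described as biological replicates, and the deposited levels are FPKM, fragments scaled by transcript length and by all mapped fragments, so that the depth of each library is unknown.

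Before a cell divides, the origin recognition complex with Cdc6 and Cdt1 loads the Mcm2 to Mcm7 ring onto DNA, and Cdc45 and GINS then turn the ring into the moving helicase. Polymerase alpha with primase starts each strand, polymerases delta and epsilon extend it on the Pcna clamp, and recombination, Fanconi and mismatch repair proteins mend what the fork leaves behind. Most of these genes are transcribed towards S phase under E2F factors, and neural progenitors of the ventricular zone pass through S phase in every cycle while neurons have left the cycle.

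All 7 markers of Cajal-Retzius cells (Reln, Trp73, Calb2, Lhx1, Lhx5, Ebf2 and Cdkn1a) were called higher in the Ebf2-EGFP+ population whatever the stage. All 8 markers of radial glia (such as Sox2, Pax6 and Hes5) were called lower. Cells were sorted on EGFP driven by regulatory sequence of Ebf2, so the call of Ebf2 is not independent of the sort. The coding table holds only genes that the study had selected as different between the populations on these same libraries, so every count is read against the share of all 4859 listed genes with the same call. Directions are on the scale of the deposited FPKM. Rescaling the libraries by the median of ratios over the listed genes moved the median of all genes in the population differences by 0.19, 0.19 and 0.13 (log2) in the order of the stages, and in the changes from E11.5 to E15.5 by 0.22 in Ebf2-EGFP- and 0.14 in Ebf2-EGFP+ cells.

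The promoters were looked at for the E2F sequence because E2F factors are the textbook regulators of these genes. 53 of the 66 genes have a window in the RefSeq promoter table (GRCm38.p6, 250 bases before to 50 after the start of transcription). The words TTTCCCGC, TTTCGCGC, TTTGCCGC and TTTGGCGC were searched on both strands, where different words can overlap on opposite strands. A word was present in 19 of the 53 genes (35.8%), in 5.79% of the 3558 listed genes with a window and in 2.6% of 27025 genes with a window. The word CCAAT, on either strand, was present in 33 of the 53 (62.3%), against 44.1% of the listed genes and 41.1% of all. A match is a stretch of letters and not a measured binding site. The lines that follow show, for genes of the naming rule given with the methods that hold a word ending no later than 30 bases after the start site, the stretch around the first such word, 5′ to 3′ on the gene's strand, with the E2F words in capitals.

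Mcm3, chr1:20820283-20820313, minus strand: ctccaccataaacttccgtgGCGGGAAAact
Mcm5, chr8:75109336-75109387, plus strand: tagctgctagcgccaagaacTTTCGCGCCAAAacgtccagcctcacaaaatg
Mcm6, chr1:128359788-128359835, minus strand: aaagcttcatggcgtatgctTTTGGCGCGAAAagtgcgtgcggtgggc
Mcm7, chr5:138172021-138172068, minus strand: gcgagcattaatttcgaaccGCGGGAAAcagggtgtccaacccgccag
Cdc6, chr11:98907993-98908040, plus strand: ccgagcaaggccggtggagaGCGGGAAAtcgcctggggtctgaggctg
Orc1, chr4:108579407-108579454, plus strand: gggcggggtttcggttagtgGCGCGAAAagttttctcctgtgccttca
Pola1, chrX:93632266-93632313, minus strand: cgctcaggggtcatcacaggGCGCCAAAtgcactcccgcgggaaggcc
Pole4, chr6:82652881-82652928, minus strand: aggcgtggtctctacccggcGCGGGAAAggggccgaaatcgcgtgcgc
Uhrf1, chr17:56304108-56304155, plus strand: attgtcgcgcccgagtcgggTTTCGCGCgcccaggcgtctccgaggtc
Msh6, chr17:87975045-87975079, plus strand: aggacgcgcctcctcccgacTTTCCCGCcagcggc

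The Mcm5 and Mcm6 stretches hold 2 words that overlap on opposite strands. The word was not limited to genes that fell: Pole4, whose level rose with stage in Ebf2-EGFP+ cells, carries it as well. The median population difference of the 19 genes with a word was -2.02 at E11.5 and -0.87 at E15.5, and that of the 34 without one was -1.71 and -0.66, differences in log2(FPKM + 1) that are given as a description.

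The first question was how far the replication and repair genes differed between the populations at each stage. At E11.5, 64 of the 66 were called lower in Ebf2-EGFP+ cells and 1, Pold4, higher, where 44.9% of the listed genes were called lower and 36.8% higher. At E13.5, 63 were called lower and none higher (background 43.5% lower and 32.1% higher), with 63 also at an unadjusted p under 0.05. At E15.5, 47 were called lower and none higher (background 31.6% lower and 25.8% higher), with 50 at an unadjusted p under 0.05. The median difference in log2(FPKM + 1) was -1.80, -1.62 and -0.66 at the 3 stages, beside -0.19, -0.19 and -0.11 over all listed genes. On the FPKM scale, Ebf2-EGFP- cells had a median of 3.76, 4.02 and 2.15 times the level of Ebf2-EGFP+ cells. 46 of the 66 genes were called lower at all 3 stages, as were 21.8% of the listed genes. Both Ebf2-EGFP+ libraries lay below both Ebf2-EGFP- libraries in 64 genes at E11.5 (50.1% of the listed genes) and 65 a stage later (49.7%), and above them in Pold4 and Rad54l2 at E11.5 (42.5%) and in Pold4 at E13.5 (39.1%). Calls are from limma with all 12 libraries, at a Benjamini-Hochberg adjusted p under 0.05 over the 4859 genes.

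Summed over the 66 genes, the level was 2923 to 3285 FPKM in the Ebf2-EGFP- libraries of E11.5 and 824 to 872 FPKM in the Ebf2-EGFP+ ones. At E13.5 the sums were 1559 to 2337 and 485 to 629 FPKM, and at E15.5 they were 704 to 950 and 452 to 460.5 FPKM. The ranges of the populations did not overlap at any stage, and the Ebf2-EGFP+ sum at E15.5 was the lowest of all groups. In sorted bulk RNA, fewer cells of a type and less RNA per cell cannot be told apart. Replicate 1 stood above replicate 2 in 65 of the 66 genes in Ebf2-EGFP- cells of E13.5 (median ratio 1.48, all listed genes 60.2%), in 63 in Ebf2-EGFP+ cells of E13.5 (1.36, 70.5%) and in 62 in Ebf2-EGFP- cells of E15.5 (1.42, 63%). In the Ebf2-EGFP+ libraries of E15.5 it was 32 of 66. In those groups the replication genes varied together between the libraries.

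**Figure D1:**
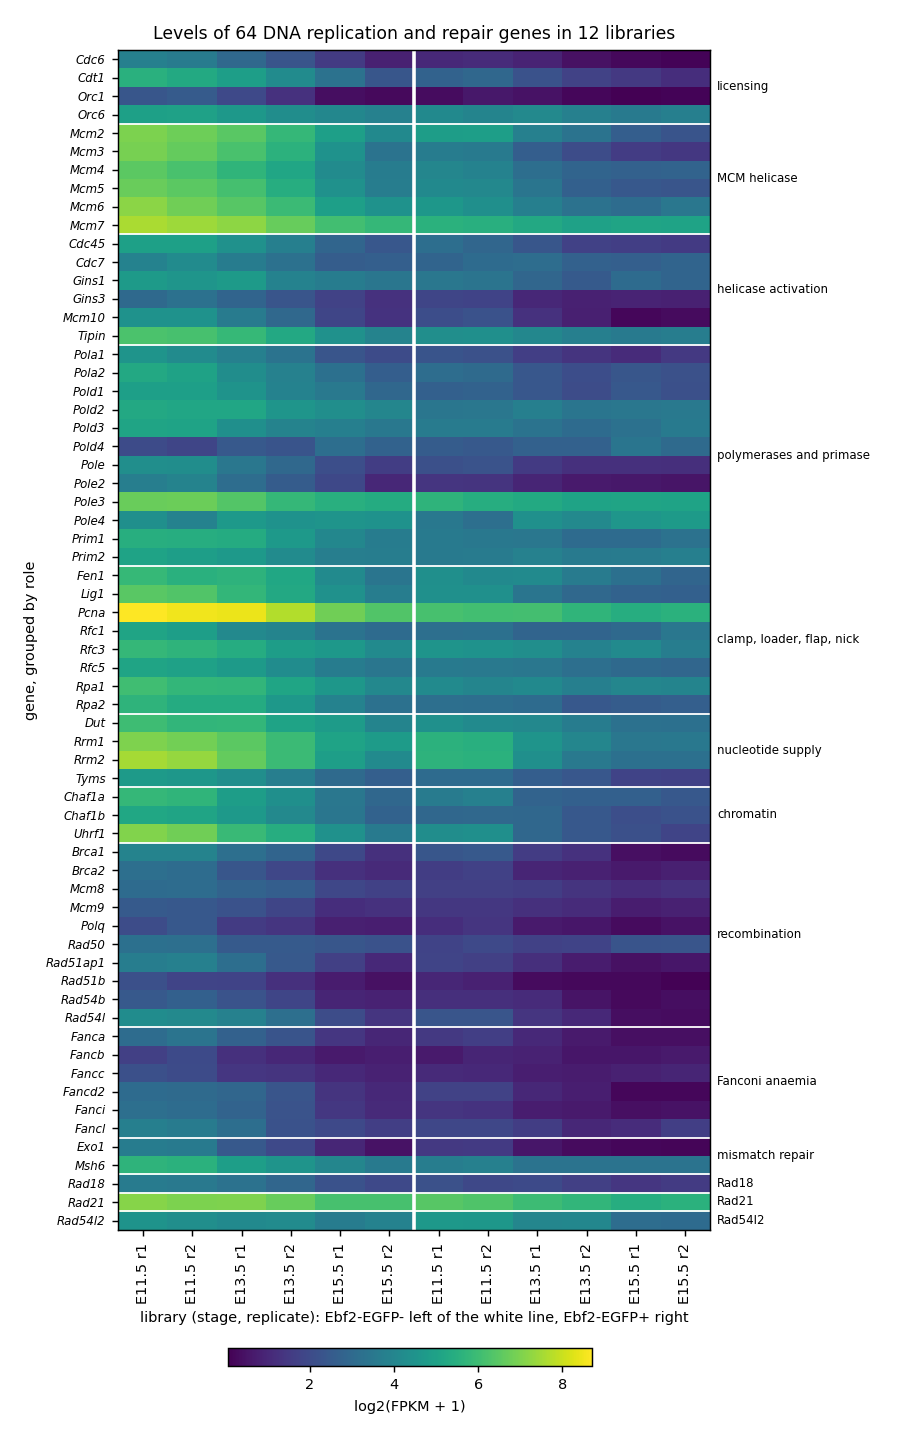
Heat map of log2(FPKM + 1) for 64 of the 66 genes (rows, by role) in the 12 libraries (columns, Ebf2-EGFP- on the left and Ebf2-EGFP+ on the right, 2 replicates a stage). Levels are highest in Ebf2-EGFP- cells of E11.5, where the 66 genes sum to 2923 to 3285 FPKM, and decrease towards E15.5 in both populations, with Pold4 and Pole4 running the other way.

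**Figure D2:**
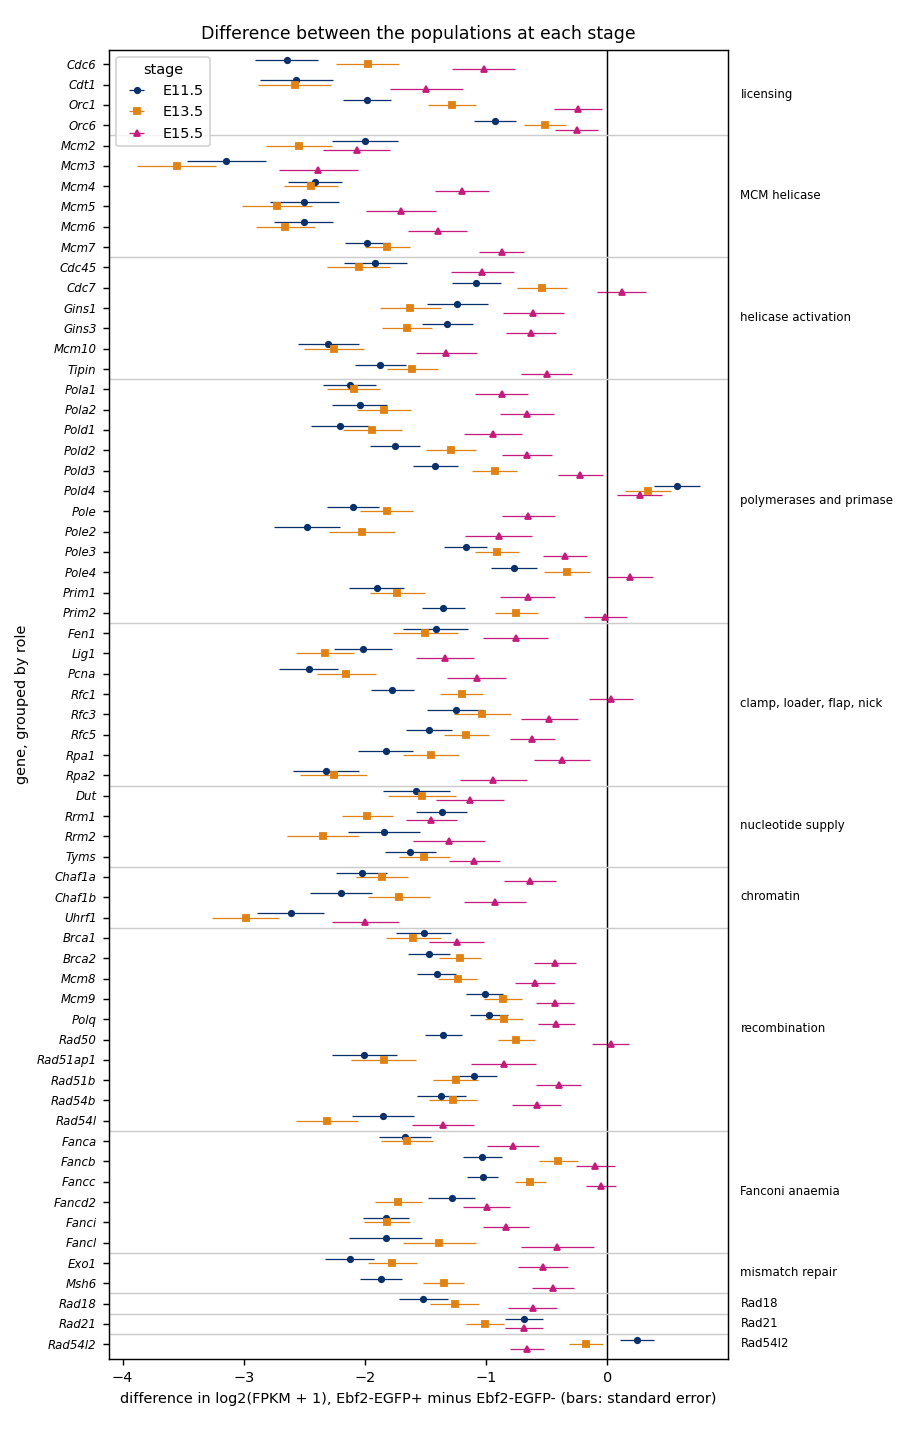
Difference in log2(FPKM + 1) between Ebf2-EGFP+ and Ebf2-EGFP- cells (x axis) for 64 of the 66 genes (rows, by role) at 3 stages, with the standard error of the limma fit (n = 2 libraries a group). Points lie left of 0 for 62, 63 and 59 genes from the earliest stage to the latest, and the E15.5 points are nearest to 0 for most genes.

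The MCM ring held the largest single difference at each stage, that of Mcm3. Mcm3 (chr1:20802968-20820312, minus strand) stood at 121 and 98.6 FPKM in the Ebf2-EGFP- libraries of E11.5 and at 11.8 and 11.1 FPKM in the Ebf2-EGFP+ ones. At E13.5 the values were 72.5 and 47.3 against 5.20 and 3.16 FPKM, and at E15.5 they were 21.1 and 9.12 against 1.99 and 1.74 FPKM. The populations did not overlap at any stage, and the differences were -3.14 ± 0.32, -3.55 ± 0.32 and -2.39 ± 0.32 (log2 ± SE; adjusted p = 4.7e-06, 6.3e-06 and 0.0001, limma). Mcm2 stood at 124 and 108 FPKM in Ebf2-EGFP- and 27.7 and 28.8 FPKM in Ebf2-EGFP+ cells of E11.5, and at 29.2 and 16.6 and 5.17 and 3.91 FPKM at E15.5. Its difference was about as large at the end as at the start (-1.999 and -2.07). Mcm7 held the highest level of the ring in Ebf2-EGFP+ cells of E15.5, at 32.9 and 32.3 FPKM, against 66.1 and 55.4 FPKM in Ebf2-EGFP- cells. Mcm4, Mcm5 and Mcm6 lay between, with differences of -2.41, -2.50 and -2.50 at E11.5 and -1.20, -1.70 and -1.40 at E15.5. All 6 subunits were called lower at each stage.

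Of the 4 licensing genes, Cdc6 and Cdt1 load the MCM ring, and Orc1 and Orc6 belong to the complex that marks origins. Cdc6 stood at 13.1 and 11.64 FPKM in Ebf2-EGFP- cells of E11.5 and at 1.08 and 1.18 FPKM in Ebf2-EGFP+ cells, which fell to 0.165 and 0.0938 FPKM at E15.5. Its difference in log2(FPKM + 1) was -2.65 ± 0.26 at E11.5 and -1.02 ± 0.26 at E15.5, where the FPKM ratios were 10.9 and 10.5. Cdt1 stood at 45.3 and 38.3 against 5.85 and 6.59 FPKM at E11.5, a difference of -2.57. Orc1 was the lowest expressed of the 4, at 4.198 and 4.81 FPKM in Ebf2-EGFP- cells of E11.5 and 0.0346 and 0.0962 FPKM in Ebf2-EGFP+ cells of E15.5. With 1 added to each FPKM its difference was -1.99 at E11.5 and -0.24 at E15.5, where it was not called; with 0.1 added, the E15.5 difference was -1.14 and was called (adjusted p = 0.036, limma). Orc6 kept 11.2 and 12.9 FPKM in Ebf2-EGFP+ cells of E15.5, when Cdc6 and Orc1 were under 1 FPKM. All 4 were called lower at E11.5 and E13.5, and Cdc6 and Cdt1 at E15.5.

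The helicase is activated by Cdc45, the GINS subunits, Mcm10 and the Cdc7 kinase, and Tipin protects the moving fork. Cdc45 stood at 30.4 and 29.8 FPKM in Ebf2-EGFP- and 8.09 and 6.501 FPKM in Ebf2-EGFP+ cells of E11.5, a difference of -1.91 ± 0.26, and -1.03 ± 0.26 remained at E15.5. Cdc7 differed from the rest of this group. It stood at 13.6 and 17.5 against 6.18 and 7.42 FPKM at E11.5 (-1.08, called), and its populations met at E15.5 at 5.11 and 5.28 FPKM in Ebf2-EGFP- and 5.36 and 6.11 FPKM in Ebf2-EGFP+ cells (0.12 ± 0.20, not called). All 6 genes of the group were called lower at E11.5 and E13.5, and Cdc45, Mcm10 and Gins3 at E15.5. The E13.5 call of Cdc7 (-0.54) was lost with rescaled libraries (-0.26) and without Ebf2-EGFP- replicate 1 (-0.33) or Ebf2-EGFP+ replicate 2 (-0.34) of E13.5.

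Subunits of 1 polymerase did not run together. The catalytic subunit of polymerase epsilon, Pole, stood at 19.0 and 18.4 FPKM in Ebf2-EGFP- cells of E11.5 and 1.39 and 1.30 FPKM in Ebf2-EGFP+ cells of E15.5, 7.18% of the first mean. Pole4, a small histone-fold subunit of the same enzyme, stood at 19.6 and 13.8 and at 23.02 and 26.0 FPKM in those groups, 147% of the first mean. In Ebf2-EGFP+ cells Pole4 rose by 1.32 ± 0.19 from E11.5 to E15.5 (adjusted p = 6.7e-05, limma), while Pole fell by 0.97 on the log2 scale. The population difference of Pole4 was -0.77 at E11.5 (called), -0.33 a stage later and 0.19 at the last stage. At E13.5 it was not called (adjusted p = 0.13, limma), but it was with replicate numbers as a block (adjusted p = 0.021, limma). In Ebf2-EGFP- cells its change from E11.5 to E15.5, 0.36, was called with rescaled libraries (0.64) and without replicate 1 of E11.5 (0.60).

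Pold4 (chr19:4231899-4233634), the smallest subunit of polymerase delta, was the 1 gene called higher in Ebf2-EGFP+ cells. It stood at 3.03 and 2.66 FPKM in Ebf2-EGFP- and 4.94 and 4.52 FPKM in Ebf2-EGFP+ cells of E11.5, a difference of 0.58 ± 0.19 (adjusted p = 0.014, limma). The call was lost without Ebf2-EGFP- replicate 2 (0.50) or Ebf2-EGFP+ replicate 1 (0.52) of that stage. At E13.5 the values were 4.52 and 3.92 against 5.58 and 5.59 FPKM (0.34, not called, but called with the replicate block at an adjusted p of 0.037, limma). With rescaled libraries it was called higher at both later stages (0.60, and 0.46 in place of 0.27). Pold4 rose with stage in both populations, by 1.03 ± 0.19 in the Ebf2-EGFP- population and 0.72 ± 0.19 in the Ebf2-EGFP+ one from E11.5 to E15.5. The second call was lost without Ebf2-EGFP+ replicate 1 of E15.5 (0.53). Its exons overlap another annotated gene on the same strand, so its reads may be shared.

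Pold1, the catalytic subunit of polymerase delta, was at 13.3% of its E11.5 Ebf2-EGFP- mean in Ebf2-EGFP+ cells of E15.5, and Pold2 and Pold3 at 28.7% and 30.2%. Pold2 stood at 9.97 and 10.05 FPKM in Ebf2-EGFP+ cells of E11.5 and at 10.01 and 10.7 FPKM at E15.5, a change of 0.04 ± 0.21 (not called). Pola1 stood at 21.9 and 17.4 FPKM in Ebf2-EGFP- and 3.88 and 3.54 FPKM in Ebf2-EGFP+ cells of E11.5, a difference of -2.13, and at -0.87 at E15.5. The catalytic primase subunit Prim1 was at 19.4% by the same measure and its partner Prim2 at 39.6%. Prim2 stood at 32.5 and 28.7 against 11.2 and 11.57 FPKM at E11.5 (-1.35, called) and at 12.5 and 12.02 against 11.6 and 12.6 FPKM at E15.5 (-0.02 ± 0.18, not called). The Ebf2-EGFP+ level of Prim2 changed by 0.08 ± 0.18 between those stages (not called), so its populations met while the Ebf2-EGFP- level fell. Of the 12 polymerase and primase genes, 11, 10 and 7 were called lower in the order of the stages.

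**Figure D3:**
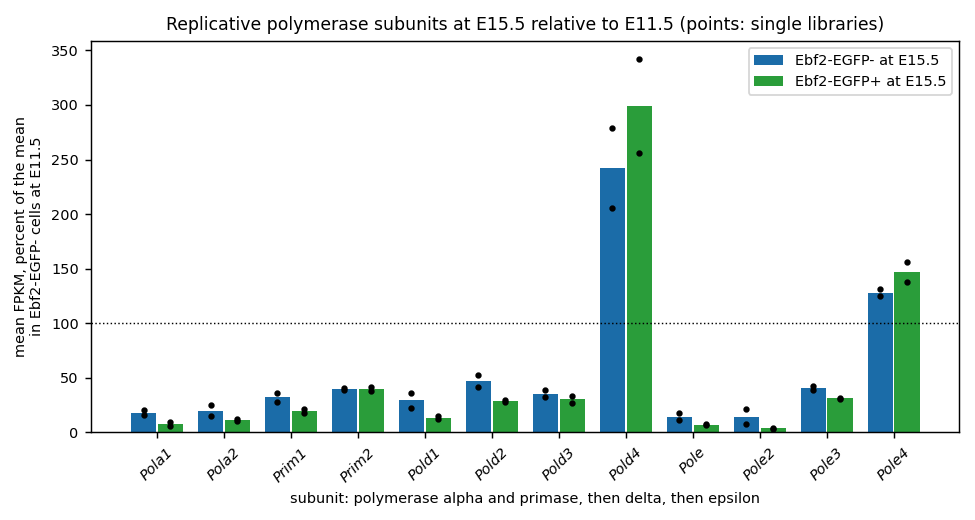
Mean FPKM at E15.5 of the 12 subunits of polymerase alpha with primase, delta and epsilon, as percent of the Ebf2-EGFP- mean at E11.5 (bars start at 0; points are single libraries; the dotted line is 100%). The catalytic subunits Pola1, Pold1 and Pole lie at 7.52%, 13.3% and 7.18% in Ebf2-EGFP+ cells, and Pole4 and Pold4 at 147% and 299%.

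The clamp Pcna (chr2:132249162-132253314), which tethers polymerases to DNA, had the highest level of the 66 in every Ebf2-EGFP- library. It stood at 412 and 361 FPKM in Ebf2-EGFP- and 72.1 and 66.3 FPKM in Ebf2-EGFP+ cells of E11.5. At E13.5 the values were 347 and 205 against 67.8 and 51.4 FPKM, and at E15.5 they were 111 and 79.3 against 41.9 and 46.0 FPKM. The difference was -2.46 ± 0.24, -2.16 ± 0.24 and -1.08 ± 0.24, called at each stage, and the Ebf2-EGFP- libraries of E13.5 lay far apart. Lig1, which seals nicks, was at 88.5 and 79.9 against 20.04 and 19.95 FPKM at E11.5 (-2.02) and -1.34 at E15.5. Fen1, which trims flaps of lagging strands, differed by -1.42 at E11.5 and -0.75 at E15.5.

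Rfc1 (chr5:65261850-65335670), the large subunit of the clamp loader, lost its difference. It stood at 33.3 and 28.9 FPKM in Ebf2-EGFP- and 8.22 and 8.53 FPKM in Ebf2-EGFP+ cells of E11.5, a difference of -1.77 ± 0.18. At E15.5 the values were 9.08 and 7.48 against 7.06 and 10.1 FPKM, a difference of 0.03 ± 0.18 (not called) with overlapping libraries. The Ebf2-EGFP+ level changed by 0.01 ± 0.18 over the same time (not called). All 8 genes of the clamp, loader, single-strand binding, flap and nick group were called lower at E11.5 and E13.5 and 5 of them at E15.5, where Rfc1, Rfc3 and Rpa1 were not.

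Nucleotide supply genes were called lower throughout. Rrm2, the small subunit of ribonucleotide reductase, stood at 184 and 161 FPKM in Ebf2-EGFP- and 48.6 and 45.9 FPKM in Ebf2-EGFP+ cells of E11.5. At E15.5 the values were 29.0 and 17.1 against 8.42 and 8.46 FPKM, and the difference was -1.84 ± 0.30, -2.35 ± 0.30 and -1.30 ± 0.30 over the stages. Its partner Rrm1 differed by -1.37, -1.98 and -1.45. Tyms, which makes thymidylate, differed by -1.62 at E11.5 and -1.10 at E15.5, and Dut, which removes dUTP, by -1.57 and -1.13. All 4 were called lower at each stage. From E11.5 to E15.5 the FPKM ratio between the populations went from 3.64 to 2.73 in Rrm2, from 3.37 to 2.64 in Tyms and from 3.09 to 2.44 in Dut, and from 2.62 to 2.92 in Rrm1. The narrowing of Rrm2 and Tyms was called only with the replicate block.

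Uhrf1 (chr17:56303321-56323486), which brings the maintenance methyltransferase to replicated DNA, stood at 131 and 113 FPKM in Ebf2-EGFP- and 18.7 and 19.4 FPKM in Ebf2-EGFP+ cells of E11.5. At E13.5 the values were 59.1 and 42.0 against 6.63 and 4.40 FPKM, and at E15.5 they were 20.5 and 10.8 against 3.48 and 2.57 FPKM. Its difference was -2.61 ± 0.27, -2.98 ± 0.27 and -1.995 ± 0.27, among the 3 largest at each stage. Chaf1b, a subunit of the factor that places histones behind the fork, differed by -2.19 at E11.5 and -0.93 at E15.5. Uhrf1, Chaf1a and Chaf1b were called lower at each stage.

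Among the 11 genes of homologous recombination and related break repair, Brca1, which prepares broken ends for recombination, fell in Ebf2-EGFP+ cells from 4.15 and 4.47 to 0.326 and 0.237 FPKM between E11.5 and E15.5, and in Ebf2-EGFP- cells from 14.2 and 14.2 to 2.83 and 1.40 FPKM. Its difference was -1.52, -1.60 and -1.24, called at each stage.

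Rad50, a part of the complex that senses broken ends, went another way. It stood at 8.54 and 8.21 FPKM in Ebf2-EGFP- and 2.45 and 2.90 FPKM in Ebf2-EGFP+ cells of E11.5 and at 4.15 and 3.64 against 3.91 and 4.07 FPKM at E15.5. The difference went from -1.35 ± 0.15 (called) to 0.03 ± 0.15 (not called), and the Ebf2-EGFP+ level rose by 0.44 ± 0.15 (adjusted p = 0.021, limma). That rise was not called without Ebf2-EGFP+ replicate 1 of E11.5 (0.35) or replicate 1 (0.47) or 2 (0.42) of E15.5. All 11 genes of this group were called lower at E11.5 and E13.5, and 8 at E15.5.

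The 6 Fanconi genes, which mend crosslinks at stalled forks, were all called lower at E11.5 and E13.5, and 3 of them at E15.5. Fancd2, which is ubiquitinated at the lesion, stood at 7.36 and 7.11 FPKM in Ebf2-EGFP- and 2.398 and 2.37 FPKM in Ebf2-EGFP+ cells of E11.5, and at 1.55 and 1.05 against 0.142 and 0.155 FPKM at E15.5. Its difference was -1.28 at E11.5 and -0.996 at E15.5. Of the mismatch repair genes, Msh6 belongs to the sensor of mispaired bases and Exo1 removes the strand. Exo1 stood at 11.8 and 10.9 FPKM in Ebf2-EGFP- cells of E11.5, and all 4 libraries of E15.5 were under 1 FPKM. Msh6 kept 9.18 and 9.13 FPKM in Ebf2-EGFP+ cells of E15.5 against 15.03 and 11.02 FPKM in Ebf2-EGFP- cells (-0.45). Exo1 and Msh6 were called lower at each stage, as was Rad18, the ligase that marks Pcna for repair synthesis. With rescaled libraries the E15.5 call of Msh6 (-0.26) was lost.

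Rad21 is the cohesin subunit that holds sister chromatids in dividing cells and chromatin loops also in cells that no longer divide. It had 138 and 127 FPKM in Ebf2-EGFP- and 87.0 and 77.6 FPKM in Ebf2-EGFP+ cells of E11.5. At E15.5 it had 71.8 and 70.6 against 42.1 and 46.0 FPKM. Its difference was -0.68, -1.01 and -0.68, called at each stage. Rad54l2 was not called at E11.5 (21.6 and 18.9 FPKM in Ebf2-EGFP- and 24.3 and 23.9 FPKM in Ebf2-EGFP+ cells, 0.24 ± 0.14), where rescaled libraries gave a called 0.49, nor at E13.5 (-0.17, 0.12 with rescaled libraries). At E15.5 it was called lower, at 11.8 and 13.7 against 7.87 and 7.40 FPKM (-0.67 ± 0.14).

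**Figure D4:**
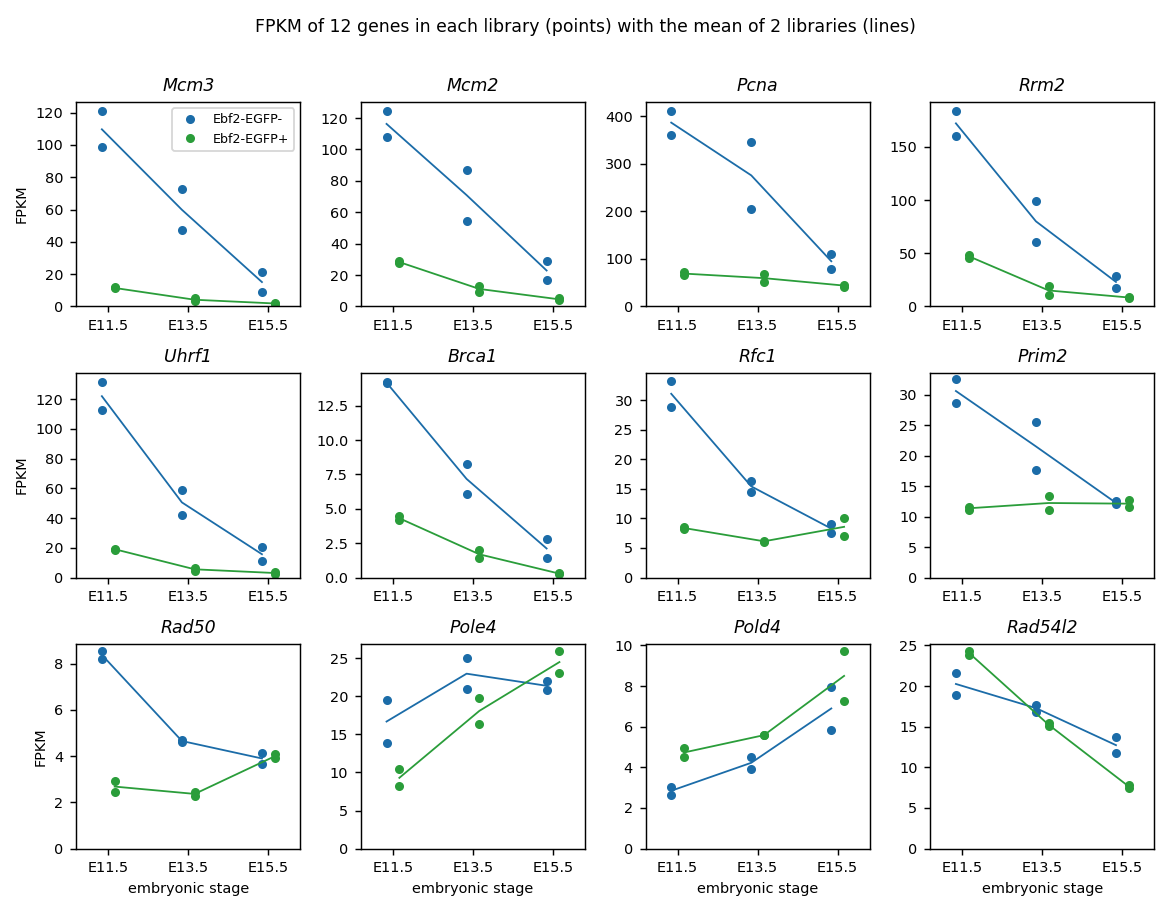
FPKM (y axes from 0, scales differ) of 12 genes by stage in Ebf2-EGFP- (blue) and Ebf2-EGFP+ cells (green), with each library as a point and lines through the means of 2 libraries. Mcm3, Mcm2, Pcna, Rrm2, Uhrf1 and Brca1 fall towards E15.5 with Ebf2-EGFP- above at each stage, Rfc1, Prim2 and Rad50 meet at E15.5, Pole4 and Pold4 climb, and Rad54l2 crosses over.

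At E15.5 the count rested on single libraries. It was 21 without Ebf2-EGFP- replicate 1 and 31 without Ebf2-EGFP+ replicate 1, in place of 47. Without Ebf2-EGFP- replicate 1, the E15.5 calls of Cdc45 (-0.79), Cdc6 (-0.67), Chaf1b (-0.59), Dut (-0.71), Exo1 (-0.28), Fen1 (-0.37), Msh6 (-0.24), Pold2 (-0.51) and Pole (-0.40) were among those lost. Those of Pola1 (-0.68) and Pold2 (-0.62) were lost without Ebf2-EGFP+ replicate 1, and that of Fen1 (-0.57) without Ebf2-EGFP+ replicate 2. Exo1, Msh6 and Pole lost theirs without either Ebf2-EGFP+ library, with values from -0.45 to -0.68. The Ebf2-EGFP+ libraries still lay below the Ebf2-EGFP- libraries in 57 genes (44.6% of the listed genes), overlapped with them in 7 and lay above them in Cdc7 and Pole4 (34.7%).

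The second question was how the genes changed with stage inside each population. In the Ebf2-EGFP- population 64 of the 66 fell from E11.5 to E15.5 and 1, Pold4, rose (background 47.6% lower and 37.7% higher), with a median change of -1.86 against -0.32 over all listed genes. The change was called lower in 51 genes from E11.5 to E13.5 (background 33.5% lower and 26% higher) and in 63 genes in the second interval, with Pold4 called higher (34.8% and 28.8%), with medians of -0.71 and -1.16. Rrm2 fell from 184 and 161 FPKM to 29.0 and 17.1 FPKM, Uhrf1 from 131 and 113 to 20.5 and 10.8 FPKM and Exo1 from 11.8 and 10.9 to 0.958 and 0.378 FPKM. These 3 had the largest changes, -2.89 ± 0.30, -2.94 ± 0.27 and -2.90 ± 0.20. Pole4 (0.36, not called), Rad54l2 (-0.63, called) and Rad21 (-0.89, called) had the smallest, and the Rad54l2 call was lost with rescaled libraries (-0.35). The mean fell from stage to stage in 64 genes, all but Pold4 and Pole4. The count from E11.5 to E13.5 was 26 and 30 without replicate 1 and 2 of E11.5 and 15 without replicate 2 of E13.5.

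In Ebf2-EGFP+ cells, which were already low at E11.5 at a median of 26.6% of the Ebf2-EGFP- mean, 47 genes fell from E11.5 to E15.5 and 3 rose, Pole4, Pold4 and Rad50 (background 42.1% lower and 33.3% higher). The median change was -0.85, against -0.18 over all listed genes. By interval, 34 fell and 1, Pole4, rose from E11.5 to E13.5 (background 36.1% lower and 21.8% higher). From E13.5 to E15.5, 9 fell and 2, Pold4 and Rad50, rose (background 17.3% lower and 24.6% higher). The median change was -0.54 in the first interval and -0.25 in the second. Without Ebf2-EGFP+ replicate 2 of E13.5, these medians were -0.42 and -0.40, so the split rested on that library. The count for the first interval was 22 without replicate 1 of E11.5 and 17 without replicate 2 of E13.5, in place of 35. The count for the second was 2 without replicate 1 of E13.5, 7 without replicate 1 and 4 without replicate 2 of E15.5, in place of 11.

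The largest changes from E11.5 to E15.5 in Ebf2-EGFP+ cells were those of Mcm2 (-2.41 ± 0.27), Rrm2 (-2.35 ± 0.30) and Uhrf1 (-2.33 ± 0.27). Mcm3 (-2.12), Rrm1 (-2.08) and Brca1 (-2.05) came next. Pcna fell by 0.64, Chaf1b by 0.78, Mcm7 by 0.46 and Msh6 by 0.42 on the log2 scale, calls that were lost with single libraries left out (Pcna -0.58 to -0.71, Chaf1b -0.72 to -0.81, Mcm7 -0.44 to -0.48 and Msh6 -0.36 to -0.48). Chaf1b kept its call without replicate 2 of E15.5, and the others lost theirs with each of the 4 Ebf2-EGFP+ libraries of these stages. With rescaled libraries those of Pcna (-0.40), Mcm7 (-0.22) and Msh6 (-0.20) were lost as well.

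Some of the 66 genes still stood at 10 FPKM or more in Ebf2-EGFP+ cells at E15.5. How many of all listed genes reached 10 FPKM or stayed under 1 FPKM was not counted. Among the genes named next, exons of Mcm7 and Orc6 overlap genes on the opposite strand, and Rad21 also serves cells that no longer divide. 12 of the 66 stood at 10 FPKM or more in both libraries (among them Mcm7, Orc6, Pcna, Pold2, Pole3, Pole4, Prim2, Rad21, Rfc3, Rpa1 and Tipin), against 25 in Ebf2-EGFP- cells of that stage and 51 in Ebf2-EGFP- cells of E11.5. 19 were under 1 FPKM in both libraries: Brca1, Brca2, Cdc6, Exo1, Fanca, Fancb, Fancc, Fancd2, Fanci, Gins3, Mcm10, Mcm9, Orc1, Pole2, Polq, Rad51ap1, Rad51b, Rad54b and Rad54l. Against the Ebf2-EGFP- mean at E11.5, the Ebf2-EGFP+ mean at E15.5 had a median of 2.57% over the 4 licensing genes, 5.60% over the MCM ring, 6.16% over recombination, 17.7% over the clamp, loader, flap and nick group and 24.0% over the polymerases and primase.

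The third question was whether the difference between the populations changed with stage. From E11.5 to E15.5 it moved upward, which for these genes means that it narrowed, in 46 of the 66, and moved downward in 1, Rad54l2 (background 32% higher and 27.7% lower). The median change of the difference was 0.96, against 0.17 over all listed genes. Rfc1 (1.81 ± 0.25, adjusted p = 0.00016), Orc1 (1.74 ± 0.28, 0.00035) and Cdc6 (1.63 ± 0.36, 0.0028) had the largest changes by limma, and Rad54l2 had -0.91 ± 0.20 (adjusted p = 0.0023). Nucleotide supply was the 1 role of several genes in which no change was called, with Rrm1 at -0.08, Rrm2 at 0.54, Tyms at 0.53 and Dut at 0.44. With replicate numbers as a block the changes of Rrm2 and Tyms were called, as were those of Cdc45, Fen1, Lig1, Mcm3, Mcm5 and Uhrf1, which were not called without it. Without Ebf2-EGFP- replicate 1 of E15.5, those of Cdc45 (1.12), Fen1 (1.05), Lig1 (1.04), Mcm3 (1.32), Mcm5 (1.15) and Uhrf1 (1.05) were called as well.

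With all libraries, the narrowing was larger between E13.5 and E15.5 than before E13.5. The median change of the difference was 0.16 in the first interval and 0.91 in the second. Without Ebf2-EGFP- replicate 1 of E13.5 these medians were 0.41 and 0.61, so the split rested in part on that library. In the second interval 19 genes were called, all higher (background 9.14% higher and 3.42% lower), and 49 had an unadjusted p under 0.05. With the replicate block 55 were called higher and 1 lower. Single libraries moved this count from 0 without Ebf2-EGFP- replicate 1 of E13.5 to 44 without Ebf2-EGFP- replicate 2 of E13.5. It was 39 without Ebf2-EGFP- replicate 1 of E15.5, 1 without replicate 2 of that group and 8 and 1 without Ebf2-EGFP+ replicate 1 and 2 of E13.5, and 6 and 2 without those of E15.5. Among the called genes, Mcm6, Mcm4 and Exo1 stood at 1.26, 1.25 and 1.24. From E11.5 to E13.5 only Fancb (0.63) and Rad50 (0.60) were called, both higher (background 15.6% higher and 19.6% lower), 6 genes had an unadjusted p under 0.05, and 8 were called higher and 2 lower with the replicate block. Leaving out single libraries gave 0 to 4 calls for that interval: 4 without Ebf2-EGFP- replicate 1 of E13.5, 1 without its replicate 2, without Ebf2-EGFP+ replicate 2 of E13.5 or without Ebf2-EGFP- replicate 1 of E11.5, and 0 without Ebf2-EGFP- replicate 2 or either Ebf2-EGFP+ library of E11.5 or Ebf2-EGFP+ replicate 1 of E13.5.

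For genes near 1 FPKM the narrowing depended on the scale. On log2(FPKM + 0.1) the E11.5 to E15.5 change was called higher in 34 genes and lower in 1, and the changes of Cdc6 (0.77), Cdt1 (0.80) and Exo1 (0.99) were not called. The FPKM ratio between the populations, to which no constant is added, was smaller at E15.5 than at E11.5 in 56 of the 66 genes. How often it was smaller over all listed genes was not counted. Cdc6 had ratios of 10.9 at E11.5 and 10.5 at E15.5, and Brca1 of 3.29 and 7.499. Fancd2 had 3.04 and 8.78, and Mcm10 6.06 and 10.6. In Pcna the ratio went from 5.59 to 2.16 and in Mcm7 from 4.02 to 1.86, at levels where the constant has little weight. Mcm6 (0.87 to 0.97) and Cdt1 (0.61 to 1.22) lost the call of a narrowed difference with single libraries left out: Mcm6 without Ebf2-EGFP- replicate 1 or Ebf2-EGFP+ replicate 2 of E11.5 or replicate 2 of either population of E15.5, and Cdt1 without each library of these stages but Ebf2-EGFP- replicate 1 of E15.5.

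Markers of mitosis and division, counted in the same libraries, had ratios that grew with stage. Mki67, a nuclear protein of cycling cells, stood at 91.8 and 89.9 FPKM in Ebf2-EGFP- and 28.8 and 34.7 FPKM in Ebf2-EGFP+ cells of E11.5, and at 14.7 and 10.95 against 1.13 and 1.24 FPKM at E15.5. Its difference was -1.49, -2.23 and -2.65, and it widened by -1.16 ± 0.31 from E11.5 to E15.5 (adjusted p = 0.008, limma). The difference of Ccnb1, the mitotic cyclin, widened by -1.19 (adjusted p = 0.037, limma). Over the 8 such markers (also Ccnb2, Cdk1, Aurkb, Plk1, Bub1 and Birc5) all were called lower in the Ebf2-EGFP+ population throughout, and the median FPKM ratio was 2.93, 5.44 and 9.75. The change of the difference was called for 2 of the 8, Mki67 and Ccnb1, both lower, where 27.7% of the listed genes were called lower. In Ebf2-EGFP+ replicates 1 and 2 of E15.5, 4 and 3 of the 8 markers were under 1 FPKM. Ratios of such markers at E15.5 divide by low values. The ratio was larger at E15.5 than at E11.5 in 8 of 8 markers and in 10 of the 66 replication and repair genes. Its direction was not counted over all listed genes, so these shares have no background. The markers were listed with earlier results of these data known, and the lists were not tested against each other.

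**Figure D5:**
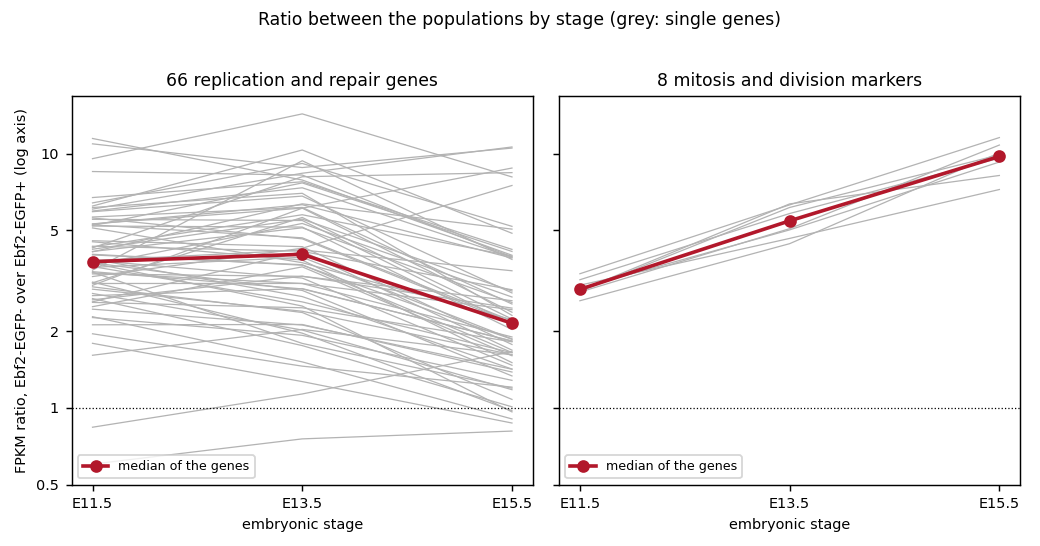
FPKM ratio of Ebf2-EGFP- over Ebf2-EGFP+ cells (log axis, means of 2 libraries) at 3 stages for the 66 replication and repair genes and for 8 mitosis markers (grey, single genes; red, median). The median of the 66 genes goes from 3.76 to 2.15, and that of the 8 markers from 2.93 to 9.75. At E15.5, 4 and 3 of the 8 markers were under 1 FPKM in Ebf2-EGFP+ replicates 1 and 2.

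Genes of the same pathways that the symbol rule leaves out were listed by function, 127 names of which 78 are in the coding table. In the order of the stages, 74, 76 and 56 of them were called lower in Ebf2-EGFP+ cells, with medians of -1.57, -1.43 and -0.74 (background 44.9%, 43.5% and 31.6% lower). From E11.5 to E15.5 the difference was called higher, that is narrower for genes lower in Ebf2-EGFP+ cells, in 40 of the 78, and 3 were called lower (background 32% higher and 27.7% lower). Those 3 were Top2a, the topoisomerase of mitotic chromosomes, Rb1, a pocket protein that restrains E2F, and Trp53bp1, a break-repair scaffold. Top2a stood at 28.0 and 12.3 FPKM in Ebf2-EGFP- and 2.17 and 1.74 FPKM in Ebf2-EGFP+ cells of E15.5, and its difference went from -1.48 to -2.74.

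Rb1 and Trp53bp1 were the 2 genes called higher in Ebf2-EGFP+ cells at E11.5. Rb1 stood at 19.0 and 16.8 FPKM in Ebf2-EGFP- and 39.1 and 36.7 FPKM in Ebf2-EGFP+ cells of E11.5 (1.05 ± 0.13), and its difference at E15.5 was -0.45 ± 0.13. Trp53bp1 stood at 44.7 and 45.1 against 90.5 and 91.6 FPKM at E11.5 (1.004 ± 0.13), and was still called higher at E13.5 (0.39). By function, all 13 listed genes of origin firing and S-phase cyclins, all 13 of fork, cohesion and topoisomerase genes and all 13 of nucleotide and histone supply were called lower at E11.5. So were all 12 of recombination and crosslink repair, all 8 of base, mismatch and nucleotide excision repair, 9 of 12 E2F and pocket proteins and 5 of 6 checkpoint genes.

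The widest differences at E11.5 came from Ung, which removes uracil from DNA (-3.07), Shmt1 and Tk1, which serve thymidylate supply (-2.79 and -2.64), and Dtl, the adaptor that has Cdt1 degraded in S phase (-2.59). Among E2F and pocket proteins Rbl1 (-2.42) and the repressor E2f8 (-2.25) led, and among origin firing genes the S-phase kinase Cdk2 (-2.40) and Gmnn, the inhibitor of Cdt1 (-2.36). Chek1, the kinase of stalled forks, stood at -2.21 and Wee1, which holds back mitosis, at -1.90. Usp1, which reverses ubiquitination of Fancd2, stood at -2.18, Bard1, the partner of Brca1, at -1.78, and the glycosylase Neil3 at -1.53. All 13 of these genes were still called lower at E15.5, where Tk1 (-2.12) and Gmnn (-2.001) kept the largest and Bard1 (-0.66), Shmt1 (-0.75) and Usp1 (-0.75) the smallest values. Of the end joining and translesion polymerase list, 1 of 17 names, Xrcc6, is in the table, and it was called lower at each stage (-1.53, -1.38 and -0.74).

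The summed level of radial glia markers fell from E11.5 to E15.5 in both populations, as did that of the replication genes. By gene, 6 of the 8 were called lower and 1 higher in the Ebf2-EGFP- population. In the Ebf2-EGFP+ one it was 6 and 2. There, Slc1a3 rose from 0.477 and 0.630 to 2.71 and 2.68 FPKM and Fabp7 from 16.4 and 16.6 to 33.8 and 24.3 FPKM. Slc1a3 also rose in the Ebf2-EGFP- population, from 13.3 and 12.6 to 22.9 and 17.4 FPKM. The population difference was called narrower in 1 of the 8. Markers of neurons and the cortical plate rose with stage in Ebf2-EGFP- cells, where most replication genes fell. The part of other cells in the results was not tested. The 8 radial glia markers summed to 1341 to 1624 FPKM in Ebf2-EGFP- and 406 to 430.2 FPKM in Ebf2-EGFP+ cells of E11.5, and to 456 to 817 and 89.0 to 152 FPKM at E15.5. The 8 neuron markers, called higher in Ebf2-EGFP+ cells for 8, 7 and 5 genes at the 3 stages, went from 626 to 680.3 FPKM in Ebf2-EGFP- cells of E11.5 to 2122 to 2721 FPKM at E15.5. The 6 cortical plate markers went from 55.9 to 58.5 FPKM at E11.5 to 719 to 897 FPKM at E15.5 in the same cells. In Ebf2-EGFP+ cells they summed to 188 to 245 FPKM at E11.5, 943 to 952 FPKM at E13.5 and 674 to 1035 FPKM at E15.5. The ranges of the populations overlapped at E15.5. The 6 intermediate progenitor markers summed to 264 to 289.6 FPKM in Ebf2-EGFP+ and 101 to 108 FPKM in Ebf2-EGFP- cells of E11.5, the reverse of the replication genes, and to 39.1 to 65.2 and 194 to 360.2 FPKM at E15.5.

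Markers of the ganglionic eminence, erythroid cells and meninges had higher sums in Ebf2-EGFP- than in Ebf2-EGFP+ cells of E11.5 as well. The 8 ganglionic eminence markers summed to 180.4 to 239 FPKM there, with Nkx2-1 at 26.5 and 33.9 FPKM, against 11.66 to 14.9 FPKM in Ebf2-EGFP+ cells, and Dlx6 was listed at 0 in both Ebf2-EGFP+ libraries of E15.5. The 5 listed erythroid markers summed to 1306 to 2794 FPKM in Ebf2-EGFP- and 32.9 to 98.3 FPKM in Ebf2-EGFP+ cells of E11.5, to 103 to 132 and 4.96 to 7.26 FPKM at E13.5 and to 202 to 1219.6 and 7.71 to 28.3 FPKM at E15.5. The 6 meninges and fibroblast markers summed to 110.02 to 129 against 41.9 to 47.2 FPKM at E11.5 and stayed under 6 FPKM in both populations afterwards. The 3 listed endothelial markers stayed under 8 FPKM and the 1 listed microglial marker, Aif1, under 3 FPKM in every library. Aif1 ran the other way, with a difference of 0.20 at E11.5 (not called), 0.65 at E13.5 and 1.20 at E15.5 (both called higher in Ebf2-EGFP+ cells).

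Read sharing limits some single genes. The library kit does not mark strand, and 20 of the 66 genes have exons that overlap a gene on the opposite strand in GENCODE M21 (among them Brca2, Cdc45, Chaf1a, Fanca, Fancc, Fancd2, Fanci, Fancl, Fen1, Lig1, Mcm7, Mcm9, Msh6, Orc1, Orc6, Pole, Rad54b, Rad54l and Rfc5). Exons of Pold4, Pole2 and Rad54b overlap another gene on the same strand. The levels of these genes are uncertain to that extent.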

How the data were processed

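Ebf2-EGFP+ and Ebf2-EGFP- cells were sorted from mouse cerebral cortex at 3 stages and sequenced as poly(A) RNA, with 2 libraries a group and 12 in all. Per the labels and the study's methods, the authors aligned reads to mm10 with TopHat2 2.0.8b and computed FPKM with Cufflinks 2.2.0, and they deposited the values of 4859 coding genes that they had selected as different between the populations on these libraries. The deposited table also holds group means and the authors' own fold changes with p-values and adjusted p-values, which were not used, and the lncRNA table was not used. Depth per library is not in the tables, and at most 54.2% of low values fell on a grid of whole fragments, so no counting interval is given and counts were not recovered.

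Levels were tested as log2(FPKM + 1) with limma 3.58.1 (R 4.3.3), with 6 groups, a mean trend and 6 residual degrees of freedom, and genes were called at a Benjamini-Hochberg adjusted p under 0.05 over all 4859 genes. Adding 1 shrinks differences of genes near or under 1 FPKM. In a test on simulated data made from the spread of these libraries, 196 of 200 changed genes and 8 of 4659 unchanged genes were called. Its noise was independent between genes, few of its genes changed, and none of the changed genes had a low level. In these data many genes deviated together between libraries and many were called, so those rates need not hold for the calls given here. The p-values measure the spread between libraries of pooled embryos.

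Libraries with the same replicate number deviated together between the populations of a stage. Deviations from the group mean correlated at 0.431, 0.534 and 0.431 over all listed genes, in the order of the stages. The labels give only replicate numbers and do not say that they pair the populations. Groups of different stages reached 0.447, so the correlations cannot show such a pairing. Across stages the correlations ran from -0.0689 to 0.447, with 0.165 to 0.447 among the Ebf2-EGFP- groups and -0.0421 to 0.0896 among the Ebf2-EGFP+ groups. Fits with the number as a block are given beside population differences and their changes only where a call changed or a count moved by over 1.5 times. Alternatives were a pseudocount of 0.1, median-of-ratios scaling, a mean of at least 1 FPKM, no trend, the compared groups alone, the block and the omission of each library.

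The 66 genes and all lists were chosen with earlier results of these data known. Values are given for main factors of each role, for the 3 largest and 3 smallest differences of each population difference and of each change from E11.5 to E15.5, for genes whose sign opposed the median, and for the 2 largest of each further pathway list. Values of 2 of the 66 genes are not reported here, though counts, sums and medians over the 66 include them. The other polymerase subunits, Fancb, Mcm10, Orc6 and the genes listed by level were chosen after their values were seen. Gene positions and exon overlaps are from GENCODE M21 on GRCm38 (mm10), and promoter windows are from RefSeq, GRCm38.p6. Python 3.11.15, pandas 2.3.3 and matplotlib 3.10.9 were used.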

Additional observations from a re-analysis of the deposited data

Results flagged for a closer look

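The population difference changed with stage, by the test of the change itself (limma, adjusted p under 0.05), in 47 of the 66 genes from E11.5 to E15.5, in 19 in the second interval and in 2 in the first. In log2(FPKM + 1), Rfc1 stood at 1.81, Orc1 at 1.74, Cdc6 at 1.63 and Rad54l2 at -0.91. A positive value is a narrower difference on that scale. The FPKM ratio of Cdc6, to which no constant is added, hardly narrowed, at 10.9 at E11.5 and 10.5 at E15.5. With 2 libraries a group, single libraries could not be tested as outliers.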

How the results depend on the processing

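Counts of called genes kept within 1.5 times the reported count under each setting that keeps all libraries, except in 3 comparisons. For the Ebf2-EGFP+ change in the second interval the count was 18 with a pseudocount of 0.1 and 18 with median-of-ratios scaling, in place of 11. For the change of the difference in the first interval it was 0 with a pseudocount of 0.1, 1 with a mean of at least 1 FPKM, 1 with no trend and 0 with the compared groups alone, in place of 2. In the second interval it was 9 with a pseudocount of 0.1 and 0 with the compared groups alone, in place of 19. The causes were not tested. With the replicate block, these 3 counts were 20, 10 and 56, and it moved no other count by over 1.5 times. Ebf2-EGFP+ libraries of different stages hardly deviated together by number (-0.0421 to 0.0896), so the block of the Ebf2-EGFP+ change joins libraries that share only a number.

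Leaving out 1 library at a time, the population difference was called in 64 to 65, 60 to 63 and 21 to 47 genes at the successive stages. The Ebf2-EGFP- change was called in 15 to 60, 50 to 62 and 65 to 66 genes (first interval, second interval, E11.5 to E15.5), the Ebf2-EGFP+ change in 17 to 35, 2 to 15 and 39 to 43, and the change of the difference in 0 to 4, 0 to 44 and 35 to 54. A group left with 1 library is assumed to vary like the others.

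Of 2176 recomputed values of the 34 genes named by the rule, 2059 kept direction and side of the threshold, 66 lost a call, 26 gained one and 25 turned direction. Turned by scaling were Rad54l2 at E13.5 (0.12), Prim2 at E15.5 (0.18), the Ebf2-EGFP+ change of Cdc7 (0.0022) and the change of the difference of Rad21 (-0.054). The pseudocount of 0.1 turned the change of the difference of Brca1 (-0.77), Fancd2 (-0.91) and Rad21 (-0.0049). With single libraries left out, the E15.5 difference ranged from -0.073 to 0.043 for Prim2, from -0.045 to 0.10 for Rad50 and from -0.20 to 0.26 for Rfc1. The Ebf2-EGFP+ change from E11.5 to E15.5 ranged from -0.00031 to 0.083 for Pold2 and from -0.22 to 0.24 for Rfc1. The change of the difference ranged from -0.064 to 0.61 for Brca1, from -0.46 to 0.32 for Mcm2, from -0.081 to 0.082 for Rad21 and from -0.22 to 0.054 for Rrm1. None of these turned values was called. Depth is unknown, and values under 1 FPKM carry the widest uncertainty.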
